A study of Mus musculus with 24 samples.

Results

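In the mesenchyme beside the Müllerian ducts of wild-type mouse embryos, 25 of the 20175 probes on a spatial expression panel were higher at E14.5 than at E13.5 (E, embryonic day) while their average difference from the duct epithelium over both stages stayed within a set limit. They were chosen on CPM values, in which a probe's count is scaled by the sum of its library and a probe that a library does not list is taken as 0. A probe was kept if its log2 stage change in wild-type mesenchyme, the mean E14.5 level over the mean E13.5 level after 20 CPM was added to each, was at least 0.7. In addition, every one of the 3 E14.5 libraries had to lie above every one of the 3 E13.5 libraries, and the E14.5 mean had to reach 60 CPM. Finally, the log2 difference between epithelium and mesenchyme, averaged over the 6 wild-type embryos with the same 20 CPM added, had to stay within 0.7 of 0 in either direction. The wild-type mesenchyme libraries thus chose the members, and their values there are a description without a test.

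The embryos were female and either wild-type or null for Wnt7a, and they were taken before the ducts meet (E13.5) or when the ducts lie against each other at the midline (E14.5). There were 3 wild-type E13.5, 3 wild-type E14.5, 3 null E13.5 and 3 null E14.5 embryos, called biological replicates in the labels, and each gave 1 library of duct epithelium (MDE) and 1 of the adjacent mesenchyme (MDM), 24 libraries in all. On the GeoMx platform, DNA probes are hybridised to a tissue section, and the barcodes of a chosen area, here outlined with laminin staining, are released by light and sequenced. The labels call these embryos Wnt7a null and do not say whether the loss was limited to a tissue. The sources used here do not give the strain or how the allele was made. A captured area holds many cells, so fewer cells of a type and less RNA per cell cannot be told apart. No table used here links the probe identifiers to genes. The level of Wnt7a and the markers of epithelium and mesenchyme were therefore not analysed here, and the members are named by identifier.

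Wnt7a encodes a secreted ligand of the Wnt family, made by the epithelium of the Müllerian duct, which forms the oviduct, uterus and upper vagina. Wnt ligands bind Frizzled receptors and act on the cell that makes them or on its neighbours, so a ligand made in the epithelium can reach the mesenchyme around it. Mice that lack Wnt7a are known for defects in the patterning of the female reproductive tract, and the duct mesenchyme of males without it fails to express the receptor for anti-Müllerian hormone. Mesenchyme around the duct gives rise to the smooth muscle and stroma of the tract.

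Library depth and signal varied between groups. Total counts ran from 1039606 to 1539942 in wild-type E13.5 MDM, 1944958 to 3625081 in wild-type E14.5 MDM, 2481026 to 3275877 in null E13.5 MDM and 3707769 to 12379529 in null E14.5 MDM. The 12 MDE libraries held 139017 to 2618342 counts with a median of 247934, and null E14.5 MDE replicate 2 stood apart with 24.1 aligned reads per count against at most 2.38 in the other MDE libraries. In MDM the aligned reads per count ran from 21.1 to 26.8, so the regions differed in this too, and that MDE library lay within the MDM range. Signal contrast, the percentage of a library's counts that fell on the probes brightest on average over the libraries (1009 probes, or 5%), went from 21.8 ± 3.99 at E13.5 to 25.7 ± 0.769 at E14.5 in wild-type MDM and from 21.3 ± 3.10 to 16.1 ± 2.27 in null MDM (SD, n = 3 each). It went from 22.9 ± 3.93 to 27.6 ± 1.20 in wild-type MDE and from 22.8 ± 4.38 to 17.5 ± 1.78 in null MDE. Of the 25 members, 17 were themselves among these 1009 probes. Background, the mean of the 5044 dimmest probes (25%), lay between 21.97 and 33.8 CPM, and a probe mean under 1.5 times the group's background is called near background below.

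Across wild-type MDM the members spanned a wide range of levels. Their E14.5 means ran from 68.3 to 14062 CPM, with a median of 212, and their E13.5 means from 33.6 to 5626 CPM, with a median of 114. At E14.5, 8 members were over 1000 CPM, 1 was between 300 and 1000, 12 were between 100 and 300 and 4 were under 100. At E13.5 in wild-type MDM 5 members were near background, and at E14.5 none of the 25 (0) was. The log2 stage changes ran from 0.71 to 1.33 with a median of 0.81, against a median of −0.05 over all probes. Of all probes, 4.61% had E14.5 libraries wholly above the E13.5 libraries in wild-type MDM, a property that the rule required of the members. The limit on the region difference holds for the average over both stages and not for each stage. In wild-type embryos the mean log2 difference of MDE over MDM ran from −0.30 to 0.64 at E13.5 and from −1.10 to 0.27 at E14.5. At E14.5, 6 members were more than 0.7 lower in MDE, among them RTS0068719 (−1.10), RTS0078025 (−0.91) and RTS0062919 (−0.88).

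The largest change belonged to RTS0067787. Its wild-type MDM libraries measured 1022, 1396 and 1749 CPM at E13.5 and 3467, 3555 and 3542 CPM at E14.5, a log2 stage change of 1.33. The E14.5 libraries were tightly grouped and the E13.5 libraries were not. RTS0070220 was the brightest member, with 3819, 5244 and 7814 CPM at E13.5 and 14083, 14966 and 13136 CPM at E14.5 and a log2 change of 1.32. Replicate 3 was the highest E13.5 library for both probes, and its signal contrast of 26.3% also exceeded the 18.9% and 20.1% of the other two.

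Membership depended on single embryos. The 3 members nearest the threshold had log2 changes of 0.72, 0.71 and 0.71, and the 3 nearest probes outside it that met the other conditions had 0.69 each. Before the conditions on overlap and region, 33 probes reached a change of 0.7 with 60 CPM at E14.5, while 6 probes with at least 60 CPM at E13.5 were lower at E14.5 by as much. Of the 33, 30 had no overlap, and 5 of these were left out as higher in mesenchyme. Without wild-type E13.5 replicate 3 the rule picked 65 probes, 24 of the 25 among them, and without wild-type E13.5 replicate 1 it picked 16, of which 14 were members. The number of members kept in each of the 6 selections that left out 1 wild-type embryo was 12.

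**Figure D1:**
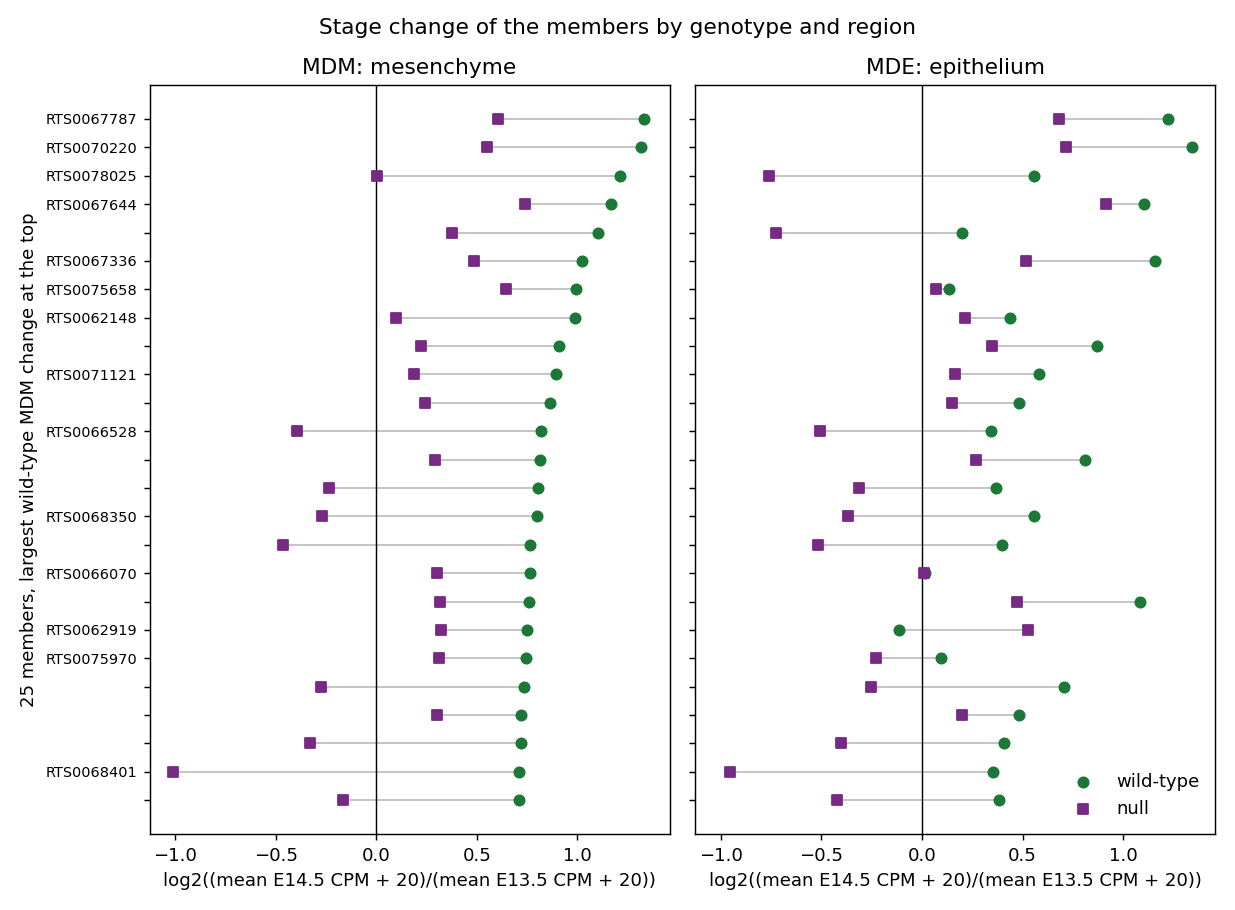
Log2 stage change, (mean E14.5 CPM + 20) over (mean E13.5 CPM + 20), of the 25 members in mesenchyme (left) and epithelium (right), with wild-type as green circles and null as purple squares joined by a line for each member. The wild-type MDM values of 0.71 to 1.33 follow from the choice of members, while null MDM runs from −1.01 to 0.74 and null MDE from −0.95 to 0.92.

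In null mesenchyme, which played no part in the choice, the members split. On the CPM scale 17 had a higher E14.5 than E13.5 mean and 8 a lower one, with log2 changes from −1.01 to 0.74 and a median of 0.24, against a median of 0.11 over all probes, of which 72.4% were higher. The 3 E14.5 libraries lay wholly above the 3 E13.5 libraries for 5 members and wholly below for 2. Over all probes these shares were 27.8% and 12.3%, so neither count exceeded the panel's share. By edgeR's quasi-likelihood test, with p-values adjusted by the Benjamini-Hochberg method over all probes, 1 member rose and 2 fell at an adjusted p under 0.05, against 4.21% and 13.7% of all probes. The fitted log2 fold changes of the 25 ran from −1.18 to 0.73 with a median of 0.14 (0.03 over all probes). An unadjusted p under 0.05 was found for 7 members, against 6427 of all 20175 probes. The members' calls were thus no more frequent than those of the panel in either direction. Leaving out a null E13.5 library changed the counts of higher and lower members to 0 and 2 (replicate 1), 4 and 0 (replicate 2) or 1 and 5 (replicate 3), and leaving out null E14.5 replicate 2 or 3 changed them to 2 and 2 or 0 and 0. The calls over all 20175 probes moved as well, from 850 and 2769. Without null E13.5 replicate 1, 2 or 3 they were 635 and 2087, 256 and 1514, or 1437 and 3576. Without null E14.5 replicate 2 or 3 they were 231 and 2450 or 286 and 1684.

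The member that rose was RTS0067644, at 75.8, 93.1 and 80.2 CPM in null E13.5 MDM and 165, 136 and 156 CPM in null E14.5 MDM, with no overlap. Its log2 fold change was 0.73 (SE 0.216, edgeR adjusted p = 0.0119). The wild-type MDM libraries of the same probe stood at 83.7, 106 and 105 CPM at E13.5 and 253, 250.4 and 237 CPM at E14.5, so the null E14.5 libraries lay under all 3 wild-type ones. RTS0075970 had the next lowest p among the members higher at E14.5. It measured 40.3, 42.4 and 41.8 CPM in null E13.5 MDM, which is near background, and 54.5, 52.8 and 61.9 CPM at E14.5, without overlap. Its log2 fold change of 0.30 (SE 0.121, edgeR adjusted p = 0.0748) did not pass. The call of RTS0067644 was lost without null E14.5 replicate 3 (adjusted p = 0.0544), without replicate 1 of null E13.5 (adjusted p = 0.0747) and with counts thinned to the lowest total (adjusted p = 0.165).

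The members that fell in null mesenchyme were RTS0068401 and RTS0066528. RTS0068401 measured 1854, 2394 and 1283 CPM in null E13.5 MDM and 1009.5, 839 and 869.6 CPM in null E14.5 MDM, a log2 fold change of −1.18 (SE 0.333, edgeR adjusted p = 0.00869). In wild-type MDM it went the other way, from 1399, 1638 and 1955 CPM to 2778, 2553 and 2879 CPM. Neither pair of groups overlapped. RTS0066528 measured 91.5, 121 and 90.7 CPM in null E13.5 MDM and 77.7, 71.0 and 68.0 CPM in null E14.5 MDM, a log2 fold change of −0.63 (SE 0.196, edgeR adjusted p = 0.0174), against 75.03, 88.3 and 114 CPM and then 179, 172 and 185 CPM in wild-type MDM. Both calls were lost without null E14.5 replicate 3 (adjusted p = 0.0622 and 0.102) and without replicate 2 of null E13.5 (adjusted p = 0.117 and 0.193), and with thinned counts (adjusted p = 0.0763 and 0.670).

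Signal contrast was lower at E14.5 than at E13.5 in the null MDM means given above, and the counts depended on whether it was fitted. When signal contrast was a covariate, edgeR called 11 members higher and 0 lower at E14.5 in null MDM, against 0.743% and 1.81% of all probes. Of the members with a negative fitted change 1 had an unadjusted p under 0.05. Over all 20175 probes the number was 3152, which is not split by direction and so is not comparable. Of the 25 fitted changes 23 were positive, with a median of 0.65 and a range from −0.50 to 1.29. DESeq2, run without it, called 1 higher and 2 lower, against 294 and 2955 of the 15872 probes given an adjusted p. With the covariate RTS0067644 was called at 1.07 (SE 0.168, adjusted p = 2.64e-05), RTS0068401 stood at −0.50 (SE 0.168, adjusted p = 0.0989) and RTS0066528 at −0.16 (SE 0.170, adjusted p = 0.709). The brightest members passed under this setting, RTS0070220 at 1.29 (SE 0.155, adjusted p = 1.03e-07) and RTS0067787 at 1.20 (SE 0.158, adjusted p = 1.28e-06), although 17 members also enter the covariate. In the fit without the covariate these last 2 had log2 fold changes of 0.41 (SE 0.376, adjusted p = 0.473) and 0.47 (SE 0.338, adjusted p = 0.343). Scaling to the upper quartile moved the all-probe median in null MDM from 0.03 to 0.14 and the share of higher probes among all calls from 23.5% to 61.8%. Under it 16 of the 25 fitted changes were positive against 15, and 15 lay above the all-probe median under both scalings.

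**Figure D2:**
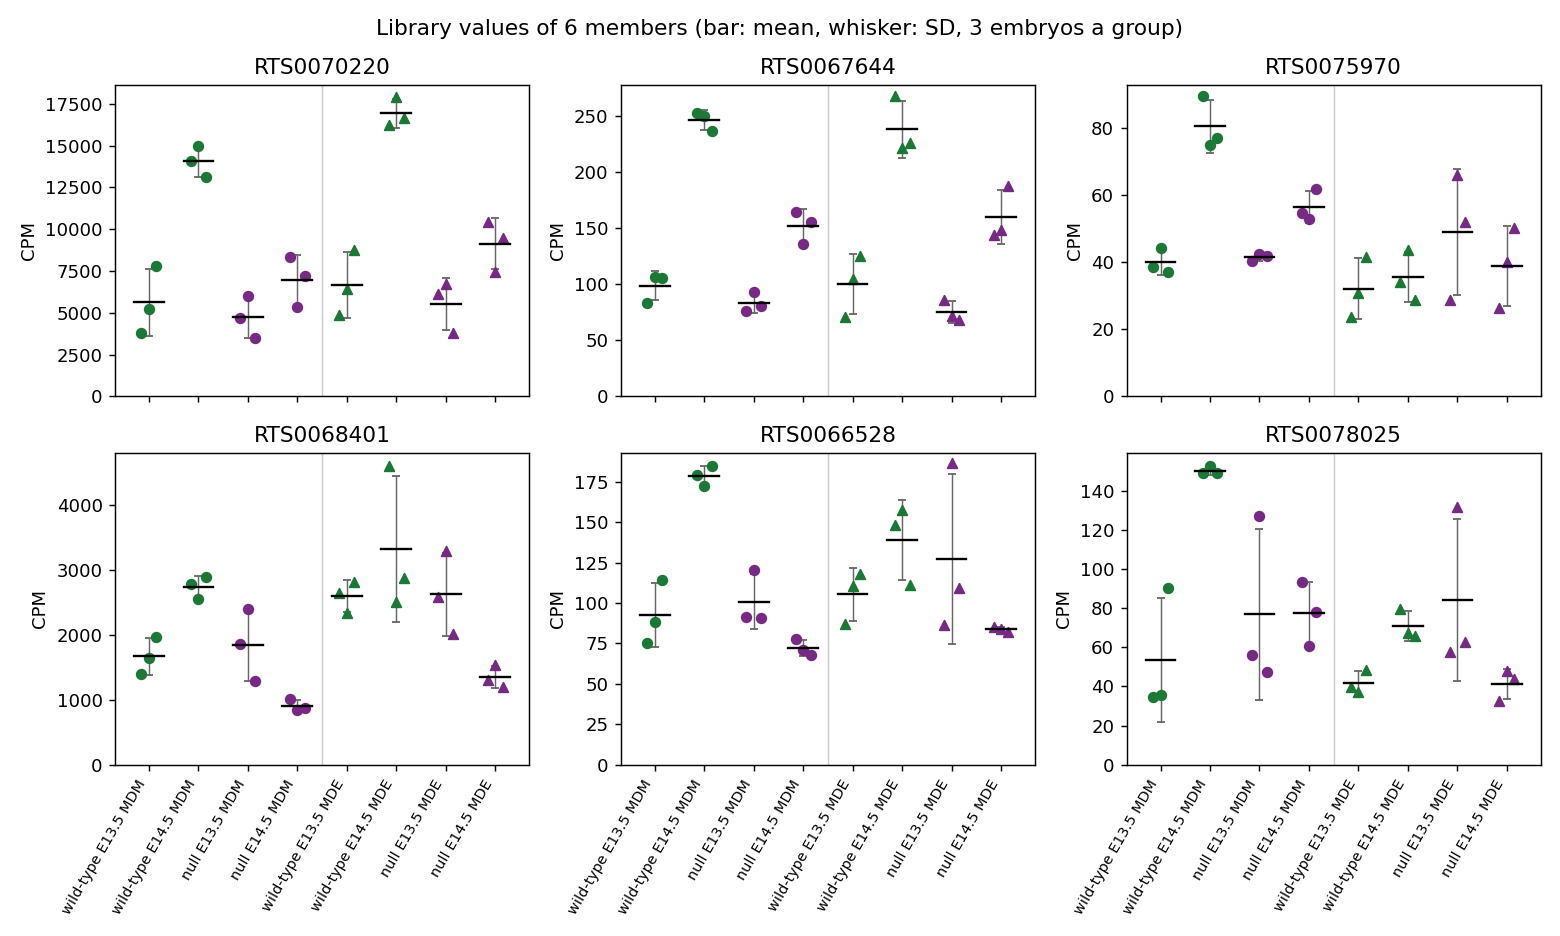
CPM of 6 members in each of the 24 libraries, grouped by genotype, stage and region, with circles for MDM, triangles for MDE, green for wild-type and purple for null, a black bar for the mean and a whisker for the SD of 3 embryos. RTS0070220 stands between 13136 and 14966 CPM in wild-type E14.5 MDM and between 5349 and 8318 CPM in null E14.5 MDM, and RTS0068401 is lower at E14.5 than at E13.5 in both null regions.

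In wild-type epithelium the members were for the most part also higher at E14.5. These libraries entered the choice through the limit on the region difference and come from the embryos that chose the members, so their counts are a description. The mean was higher at E14.5 for 24 members and lower for 1, with log2 changes from −0.11 to 1.34 and a median of 0.48 (−0.06 over all probes). The E14.5 libraries lay wholly above the E13.5 libraries for 9 of 25, against 4.3% of all probes. A log2 change of 0.7 or more, the bound used in mesenchyme, was reached by 8 members, and 5 members changed by less than 0.3. EdgeR called 4 members higher, against 0.122% of the probes tested in MDE. An unadjusted p under 0.05 was found for 13 members, against 1064 of the 14758 probes tested. DESeq2 gave an adjusted p for only 738 probes here and called 31 of all probes higher, 7 of them members. The edgeR count stayed at 4 without wild-type E13.5 replicate 3 and was 0 without any one of the other wild-type MDE libraries. Over the probes tested, 18 were called higher in the main fit, 26 without that replicate and 3 to 8 without any one of the others.

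The probes with the largest stage change in wild-type MDE were also those with the largest in wild-type MDM. RTS0070220 measured 4840.1, 6423 and 8754 CPM in wild-type E13.5 MDE and 16237, 17918 and 16654 CPM in E14.5 MDE, a log2 change of 1.34. RTS0067787 went from 1539.5, 1718 and 1965 CPM to 4399.8, 3968 and 3898 CPM, a log2 change of 1.22. Neither overlapped between stages. At the other end, RTS0062919 measured 23.7, 37.0 and 97.2 CPM at E13.5 and 39.9, 60.4 and 41.1 CPM at E14.5, and the stages overlapped around a log2 change of −0.11. RTS0066070, near background at both stages in wild-type MDE, measured 43.5, 24.6 and 27.8 CPM and then 28.5, 40.3 and 28.8 CPM, a log2 change of 0.01. Counts this low limit the precision: RTS0066070 rested on 4 to 11 counts per wild-type E13.5 MDE library and on 5 to 12 per E14.5 MDE library.

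In null epithelium the members were divided as in null mesenchyme. On the CPM scale 14 were higher and 11 lower at E14.5, from −0.95 to 0.92 with a median of 0.07 (0.09 over all probes). The libraries did not overlap for 4 higher and 5 lower members, against 11.3% and 6.78% of all probes. EdgeR called 1 member higher and 1 lower, against 0.156% and 1.8% of the 14758 probes tested. An unadjusted p under 0.05 was found for 6 members, against 1899 of the probes tested. Without 1 null library the count of higher members was 0 in each case, and that of lower members was 2 without null E13.5 replicate 1 or 3 and 0 without null E13.5 replicate 2, null E14.5 replicate 1 or null E14.5 replicate 3. Over the probes tested in these fits, 4 to 44 were called higher and 84 to 531 lower, against 23 and 265 in the main fit. The null stage change lay below the wild-type one for 24 of 25 members in MDE and for 25 of 25 in MDM. The choice of members favours this direction in MDM, and the wild-type MDE libraries come from the embryos that chose the members. Both counts are a description, and the share over all probes was not counted.

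RTS0067644 was again the member that rose. Its null MDE libraries measured 86.3, 71.4 and 68.5 CPM at E13.5 and 144, 149 and 187 CPM at E14.5, with no overlap and a log2 fold change of 1.08 (SE 0.312, edgeR adjusted p = 0.0362). The wild-type MDE libraries stood at 71.2, 105 and 125 CPM and then at 268, 221 and 226 CPM. RTS0067787 had the next lowest p among the higher members, with 1928, 2361 and 1462 CPM at E13.5 and 3518, 2464 and 3267 CPM at E14.5 and a log2 fold change of 0.63 (SE 0.317, edgeR adjusted p = 0.375). Its null E14.5 libraries did not overlap the E13.5 ones, though the nearest pair lay close together. The call of RTS0067644 in MDE was lost in each of the 6 fits that left out 1 null library (edgeR adjusted p = 0.0619 to 0.229, log2 fold change 0.91 to 1.14).

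The member that fell in null MDE was RTS0078025, from 57.5, 132 and 63.0 CPM to 32.7, 47.7 and 43.6 CPM, which is near background, with a log2 fold change of −0.88 (SE 0.260, edgeR adjusted p = 0.0404). In wild-type MDE the same probe stood at 39.6, 37.0 and 48.6 CPM and then at 79.8, 67.1 and 65.8 CPM. In null MDM its stages overlapped, at 56.0, 127 and 47.6 CPM and then 93.3, 60.7 and 77.9 CPM, and the sign of its stage change depended on the scaling (0.01 on the CPM scale and −0.17 with TMM scaling). With signal contrast as a covariate RTS0078025 was called higher in null MDM at 1.07 (SE 0.246, edgeR adjusted p = 0.0207), and without null E13.5 replicate 2 its change there was 0.47 and was not called. RTS0068401 measured 2575, 3278 and 2004 CPM in null E13.5 MDE and 1299, 1528 and 1201 CPM in E14.5 MDE, with no overlap, and a log2 fold change of −1.02 (SE 0.317) that did not pass in edgeR (adjusted p = 0.0611) but did in DESeq2 (−1.05, adjusted p = 0.00168) and limma-voom (−0.99, adjusted p = 0.00827). The call of RTS0078025 was lost without null E13.5 replicate 2 (−0.49, adjusted p = 0.712), the library with 132 CPM, and without any one of null E14.5 replicates 1, 2 and 3 (adjusted p = 0.0729, 0.0708 and 0.102).

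With signal contrast as a covariate the null MDE counts also moved, to 5 members higher and 0 lower, against 0.0949% and 0.183% of the probes tested. The 5 included RTS0070220 at 1.31 (SE 0.2004, edgeR adjusted p = 1.30e-06), RTS0067787 at 1.10 (SE 0.210, adjusted p = 0.000447) and RTS0067644 at 1.33 (SE 0.331, adjusted p = 0.0286), and RTS0078025 was not called at −0.52 (SE 0.354, adjusted p = 0.785). The 25 fitted changes had a median of 0.13, close to the 0.10 without the covariate. An unadjusted p under 0.05 was found for 2 of those that were negative. Over the 14758 probes tested the number was 1131, which is not split by direction and so is not comparable.

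The directions of the members in the regions of null embryos are a description, since agreement between regions was not counted over all probes. Of all probes, 72.4% were higher at E14.5 in null MDM and 62.0% in null MDE. On the CPM scale 14 were higher at E14.5 in both null regions, 8 were lower in both, 3 were higher in MDM and lower in MDE, and 0 were lower in MDM and higher in MDE. Both regions came from the same embryos, so what varies between embryos is shared. A test of the difference between the regions' stage changes in null embryos, with the embryo as a block, was added after the data were seen. By edgeR 1 of 25 members passed, RTS0068719, against 0.0397% of all probes in that direction. An unadjusted p under 0.05 was found for 4 members, against 1118 of all 20175 probes. RTS0068719 measured 32.6, 70.8 and 41.1 CPM in null E13.5 MDM and 74.2, 68.1 and 63.3 CPM in E14.5 MDM, against 28.8, 98.8 and 52.0 CPM and then 22.9, 36.3 and 25.8 CPM in MDE. The stage change was thus higher in MDM by 1.39 (SE 0.308, adjusted p = 0.0189), with overlapping stages in each region. In wild-type embryos its log2 stage change on the CPM scale was also larger in MDM (1.10) than in MDE (0.20). The call was lost without null E13.5 replicate 2 or 3 and without null E14.5 replicate 1 or 3 (adjusted p = 0.506, 0.255, 0.0635 and 0.103).

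**Figure D3:**
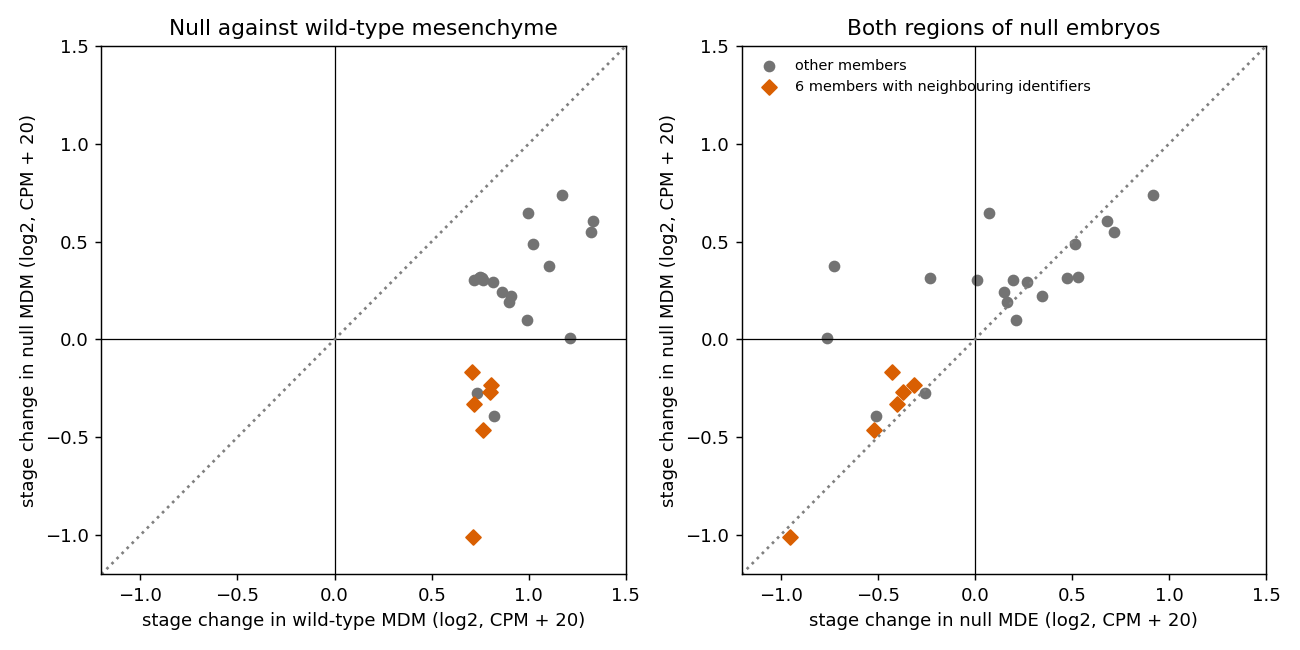
Log2 stage change (CPM + 20) of the 25 members in null MDM against wild-type MDM (left) and against null MDE (right), with the line of equal change dotted and 6 members with neighbouring identifiers as orange diamonds. All 25 points lie under the dotted line on the left, a direction favoured by the choice of members, and on the right 14 members are above 0 on both axes and 8 below 0 on both.

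Of the 8 members lower at E14.5 in both null regions, 6 carried neighbouring identifiers, from RTS0068350 to RTS0068409, a span of 60 identifiers out of 20751 covered by the panel. This group was noticed after the values were seen, identifiers carry no stated meaning here, and whether the 6 probes share sequence or target was not tested. The panel holds 53 probes in that span. The 47 that are no members had wild-type MDM stage changes from −0.40 to 0.67 with a median of 0.02, and 3 of them reached 0.5. The rule set its bound of 0.7 on these same values, so the gap between them and the members follows from it. The 6 members stood at 0.71 to 0.81 in wild-type MDM and at 0.35 to 0.56 in wild-type MDE. Each was kept in only 4 or 5 of the 6 selections that left out 1 wild-type embryo. The 3 members nearest the threshold, RTS0068401 among them, belong to this group. In null MDM they ran from −1.01 to −0.16 with a median of −0.30, and in null MDE from −0.95 to −0.31 with a median of −0.41. The other 19 members had medians of 0.30 in null MDM, where 2 were lower, and 0.20 in null MDE, where 5 were lower. The direction of the 6 depended on the fit. EdgeR's log2 fold changes were negative for all 6 in both null regions, whereas with signal contrast as a covariate 5 of the 6 turned positive in null MDM (−0.50 to 0.37, median 0.18) and 2 in null MDE (−0.61 to 0.09, median −0.06).

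The first of these 6 probes shows the pattern in the libraries. RTS0068350 measured 737, 950.0 and 1183 CPM in wild-type E13.5 MDM and 1686, 1582 and 1773 CPM in wild-type E14.5 MDM, without overlap. In null MDM it measured 909, 1149.9 and 669 CPM and then 909.7, 544 and 796 CPM, so that the stages overlapped, and its log2 fold change of −0.42 (SE 0.321, edgeR adjusted p = 0.371) did not pass. The last, RTS0068409, went from 854, 955 and 1201 CPM to 1778, 1632 and 1745 CPM in wild-type MDM. In null MDM it stood at 1159, 1411 and 799 CPM and then at 972, 592 and 860.4 CPM, with a log2 fold change of −0.62 (SE 0.322, edgeR adjusted p = 0.174), which passed without null E13.5 replicate 3 (−0.85, adjusted p = 0.0480). With signal contrast as a covariate both probes turned positive, RTS0068350 at 0.37 (SE 0.160, adjusted p = 0.234) and RTS0068409 at 0.15 (SE 0.160, adjusted p = 0.727). For each probe the highest null E13.5 MDM library was replicate 2, with the highest signal contrast of its group (24.0%), and the lowest null E14.5 MDM library was the replicate 2 of that stage, with the lowest contrast of its group (13.9%).

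At E13.5 the genotypes overlapped for most members. The log2 difference between null and wild-type, on the CPM scale with 20 added, ran from −0.36 to 0.61 in MDM with a median of 0.15 (0.01 over all probes) and from −0.46 to 0.75 in MDE with a median of 0.14 (0.00 over all probes). The null libraries lay wholly above the wild-type ones for 2 members in MDM and 1 in MDE, against 3.65% and 4.66% of all probes. They lay wholly below for 1 member in MDM, RTS0062148, against 2.87% of all probes. That probe measured 53.6, 52.8 and 56.1 CPM in null and 73.1, 72.1 and 79.8 CPM in wild-type E13.5 MDM.

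At E14.5 all 25 members were lower in null than in wild-type MDM, and the libraries did not overlap for 20. Over all probes 12.4% lay wholly lower in null and 50.5% wholly higher. The wild-type E14.5 MDM libraries chose the members, and this direction is favoured by that choice, so the values carry no test. The log2 differences ran from −1.57 to −0.09 with a median of −0.51, against 0.16 over all probes, and edgeR's fit placed 17 members among the lower probes, against 17.6% of all probes. In MDE, 20 of 25 were lower in null, 16 without overlap, where 6.9% of all probes were wholly lower, and the log2 differences ran from −1.29 to 0.19 with a median of −0.42 (0.15 over all probes). At an adjusted p under 0.05 edgeR called 8 members lower in MDE, against 4.61% of the probes tested. This count is a description, since the wild-type MDE libraries entered the choice and come from the embryos that chose the members.

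RTS0068401 had the lowest genotype difference in both regions. At E14.5 it stood at 1009.5, 839 and 869.6 CPM in null against 2778, 2553 and 2879 CPM in wild-type MDM, a log2 difference of −1.57, and at 1299, 1528 and 1201 against 4599, 2499 and 2866 CPM in MDE, a difference of −1.29. RTS0062148 followed in MDM, at 63.1, 57.3 and 57.6 CPM in null against 189.7, 163 and 153 CPM in wild-type, a difference of −1.25, and it was the member already wholly lower at E13.5. Its null MDM libraries were wholly higher at E14.5 than at E13.5, with a log2 change of 0.10 on the CPM scale, while edgeR's fit gave −0.01 (SE 0.168). RTS0068350 had the next lowest difference in MDE, −0.90, with 864, 921 and 938 CPM in null against 2120.1, 1456 and 1563 CPM in wild-type.

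On the CPM scale, members at the upper end kept near-equal levels between genotypes at E14.5. RTS0071121 measured 243, 125 and 182 CPM in null and 210.3, 178 and 203 CPM in wild-type E14.5 MDM, overlapping around a log2 difference of −0.09. It was one of the members wholly higher in null E13.5 MDM, at 165, 195 and 114 CPM against 90.4, 92.9 and 106 CPM. RTS0075658 measured 94.7, 82.7 and 82.5 CPM against 78.7, 103 and 104 CPM at E14.5 in MDM, a difference of −0.11. The all-probe median on this scale was 0.16. EdgeR's fit gave −0.32 for RTS0071121 and −0.37 for RTS0075658 in MDM, against a median of 0.03 over all probes. In MDE the highest differences were 0.19 for RTS0062919, with 72.0, 53.9 and 43.6 CPM in null and 39.9, 60.4 and 41.1 CPM in wild-type, and 0.12 for RTS0066070, near background in both genotypes. The 6 members with neighbouring identifiers were all wholly lower in null at E14.5, by −1.57 to −0.81 in MDM and −1.29 to −0.60 in MDE, and lay between −0.09 and 0.23 at E13.5.

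**Figure D4:**
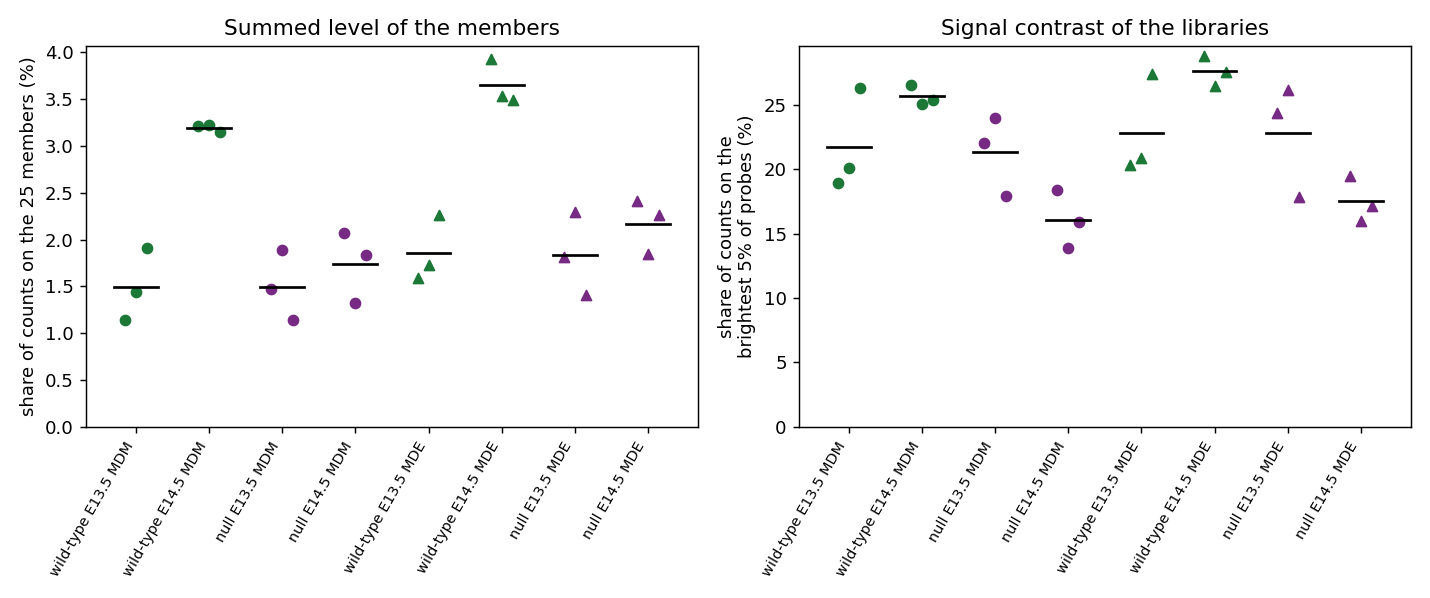
Percentage of each library's counts on the 25 members (left) and on the brightest 5% of probes (right, signal contrast) by group, with circles for MDM, triangles for MDE, green for wild-type, purple for null and a bar for the mean of 3 embryos. The members' share is between 3.15% and 3.23% in wild-type E14.5 MDM and between 1.33% and 2.07% in null E14.5 MDM, and signal contrast is also lower in null at E14.5.

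Summed over the 25 probes, the members took 1.496% ± 0.390 of the counts in wild-type E13.5 MDM and 3.20% ± 0.0440 in wild-type E14.5 MDM (SD, n = 3 each). In null MDM the sum was 1.497% ± 0.374 at E13.5 and 1.74% ± 0.378 at E14.5, and the libraries of both stages overlapped. In MDE it was 1.86% ± 0.352 and 3.65% ± 0.242 in wild-type and 1.84% ± 0.446 and 2.17% ± 0.293 in null. RTS0070220 weighs heavily in these sums. Without it the shares were 0.933% ± 0.188 and 1.79% ± 0.0522 in wild-type MDM and 1.02% ± 0.248 and 1.05% ± 0.229 in null MDM. Within null MDM the library with the lowest E14.5 share of the members, 1.33%, was replicate 2, which also had the lowest signal contrast (13.9%) and the most counts (12379529).

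**Figure D5:**
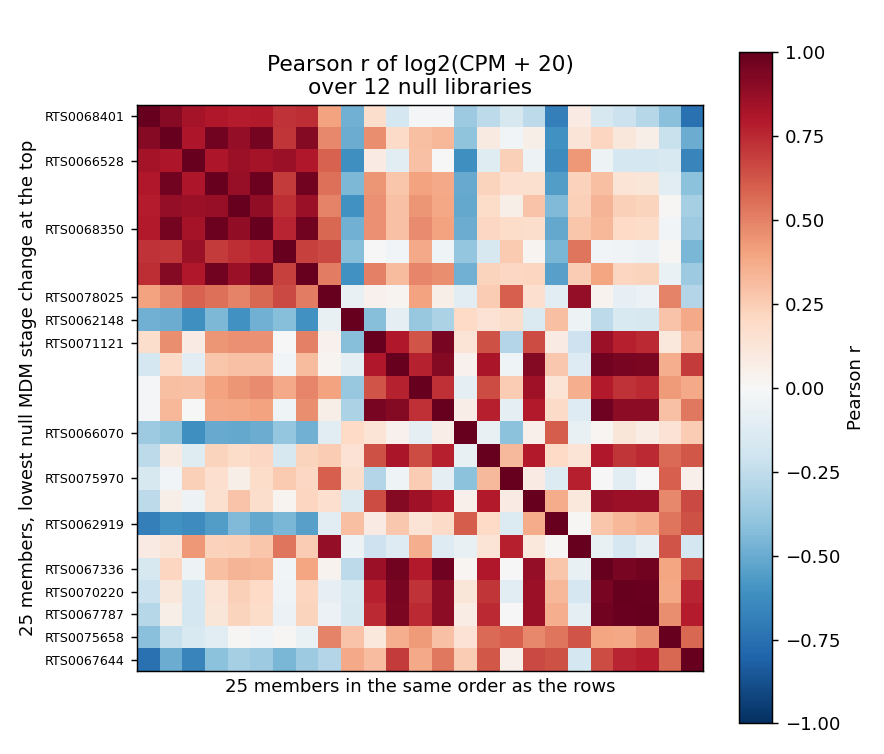
Pearson correlation of log2(CPM + 20) between each pair of the 25 members over the 12 null libraries, rows and columns in the same order from the lowest to the highest null MDM stage change, with red for positive and blue for negative values. A block of probes lower at E14.5 in null MDM stands at the top left, and a block around RTS0070220 and RTS0067787 stands at the lower right. The order was taken from some of the same libraries, which helps to place like probes together.

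Over the 12 null libraries, which the rule did not use, the members fell into blocks. The correlations are a description, since the points share embryos, depth and signal contrast. Correlations among other probes of the panel were not computed. The members most like RTS0067787 were RTS0070220 (Pearson r = 0.9876 of log2(CPM + 20), 12 libraries) and RTS0067336 (r = 0.962). RTS0067336 measured 1448, 1874 and 1188 CPM in null E13.5 MDM and 2587, 1405 and 2349.6 CPM in null E14.5 MDM, against 1012, 1245 and 1661 CPM and then 2712, 2608 and 2697 CPM in wild-type MDM. As for RTS0067787 and RTS0070220, null E14.5 replicate 2 was the lowest of its group. The 6 members with neighbouring identifiers correlated with each other at r = 0.68 to 0.98 over 15 pairs, with a median of 0.80. That group was noticed after the values of these same null libraries were seen, so its likeness there is not independent of how it was found. Their correlations with the other members ran from −0.75 to 0.89 with a median of 0.16 over 114 pairs, and those among the other members from −0.66 to 0.99 with a median of 0.26 over 171 pairs. Pairs as alike as those within the 6 were also found outside them.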

How the data were processed

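The files hold whole-number counts per probe as the authors deposited them, not normalised, and per the file headers come from version 2.3.5 of the GeoMx NGS Pipeline. The submitters' processing notes list the build GRCm38.p6. The rule for collapsing reads is not given in the sources used here. Libraries listed 19862 to 20175 probes, and unlisted ones were set to 0. No identifier matched the RefSeq gene table (0 of 20175), so gene and marker lists were not used.

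The members and lists were chosen with earlier results of these data known. Named probes were at most 2 in each direction per comparison, by lowest p in tested comparisons and by largest or smallest change, level or likeness in descriptions. RTS0068409 and RTS0068719 were named after their values were seen.

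Counts were tested with edgeR 4.0.16 (R 4.3.3): TMM, filterByExpr (minimum count 10, total 15), a robust quasi-likelihood fit of the 12 libraries of a region, and Benjamini-Hochberg adjustment at 0.05. All 25 members passed the filter in both regions. The SE is the size of the log2 fold change over the square root of F. The difference of stage changes between null regions was fitted with the embryo as a block. The fits were also run on simulated counts with a fixed spread per region. Signal contrast did not vary there as in the real libraries, so the dependence on it was not tested. Alternatives were other scaling, DESeq2 1.42.0, limma-voom (limma 3.58.1), no filter, fewer libraries, a replicate block, signal contrast as a covariate, thinned counts and leaving out each library. Same-numbered embryos of the stages are different animals, so numbers do not pair samples.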

Additional observations from a re-analysis of the deposited data

Results flagged for a closer look

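RTS0068719 differed between the regions of null embryos in its stage change, which was higher in MDM than in MDE by 1.39 on the log2 scale (SE 0.308, edgeR adjusted p = 0.0189, embryo as a block), in a test added after the data were seen. Its mean went from 48.2 ± 20.0 to 68.5 ± 5.45 CPM in null MDM and from 59.9 ± 35.7 to 28.3 ± 7.03 CPM in null MDE, which is near background (SD, n = 3 each). The null MDE libraries held 4, 18 and 19 counts of it at E13.5 and 7, 95 and 16 at E14.5. A larger change in MDM was not particular to null embryos: the wild-type log2 stage changes were 1.10 in MDM, which the choice of members favours, and 0.20 in MDE. The probe was kept in 3 of the 6 selections that left out 1 wild-type embryo. Null E13.5 replicate 2 was its highest E13.5 library in both regions, at 70.8 CPM in MDM and 98.8 CPM in MDE. Without that embryo the difference was 1.24 (adjusted p = 0.506), and over the 6 fits that each left out 1 null embryo it ranged from 1.24 to 1.77 (adjusted p = 0.0118 to 0.506).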

How the results depend on the processing

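The number of members, 25, became 40 with TMM and 39 with upper-quartile scaling, 73 with a threshold of 0.5 and 6 with a threshold of 1, and 16 to 65 without 1 wild-type embryo. In null MDM, members called higher (1) numbered 3 with upper-quartile scaling, 2 with the replicate block, 11 with the contrast covariate and 0 with thinned counts, and 0 to 4 without 1 null library, the 4 coming without null E13.5 replicate 2. Over all probes the count of 850 became, in the same order, 3417, 819, 150 and 17, and 231 to 1437 without 1 library. Members called lower (2) numbered 0 with the covariate, 0 with thinned counts and 1 by limma-voom, and 0 to 5 without 1 library, the 5 coming without null E13.5 replicate 3. The 2769 lower calls over all probes became 366, 216 and 1644, and 1514 to 3576 without 1 library. In null MDE, members called higher (1) numbered 0 without the filter, 5 with the covariate, 0 with thinned counts and 0 with the 6 libraries compared, and 0 without any 1 library. Over the probes tested the count of 23 became 18, 14, 0 and 17, and 4 to 44 without 1 library. Members called lower (1) numbered 0 with upper-quartile scaling, 2 with the replicate block, 0 with the covariate, 0 with thinned counts, 3 by limma-voom and 0 to 2 without 1 library. The 265 lower calls over the probes tested became 165, 240, 27, 15 and 482, and 84 to 531 without 1 library. In wild-type MDE, members called higher (4) numbered 7 by DESeq2, 0 without the filter, 2 with the replicate block, 0 with thinned counts, 7 with the 6 libraries compared and 0 to 4 without 1 library. Over the probes tested the count of 18 became 31, 8, 11, 0 and 67, and 3 to 26 without 1 library. The test between null regions called 0 to 1 member higher without 1 embryo, and 3 to 11 of all probes, against 8 in the full fit. The causes were not tested.

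Among the named probes with a printed null stage change, 4 turned direction in null MDM. RTS0078025 (−0.17) was 1.07 with the covariate and 0.11 by limma-voom, and −0.47 to 0.47 without 1 library. RTS0062148 (−0.01) was 0.10 with upper-quartile scaling, 0.21 with the covariate and 0.0317 by limma-voom, and −0.0842 to 0.0135 without 1 library. RTS0068350 (−0.42) and RTS0068409 (−0.62) were 0.37 and 0.15 with the covariate. Same-numbered libraries of the 2 stages correlated in their deviations at −0.15 to 0.23, below 0.1 for at least 1 number in each genotype and region, so the replicate block is given here alone. Of the members tested in MDE, those near background rested on few counts, and thinning to the lowest total left 5384 of 14758 probes tested.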
